A study of Homo sapiens with 6 samples.

Results

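Intronless non-histone coding genes are protein-coding genes whose coding sequence lies in a single exon, outside the histone clusters. The group described here was a list of 37 such genes, matched by symbol to the 58051 Ensembl gene identifiers of the deposited count table. Genes above 1 CPM (counts scaled to a common library total) in at least 3 libraries were tested, which kept 36 of the 37 genes of the group among 16974 genes in all. The exception was KCTD12, an auxiliary subunit of GABA-B receptors, with 1 count in LMB replicate 1 and 0 counts in the other 5 libraries. Over the totals of all 6 libraries, a count of 0 would allow up to 0.0834 to 0.106 CPM by counting error alone. CITED4 passed the filter in 4 libraries, the 3 LMB libraries and LMB+auxin replicate 1.

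Most human coding genes have introns, and splicing loads onto the mRNA a complex of proteins that helps recruit the export machinery. Transcripts made without splicing lack that route and depend on other means of loading export factors. Many intronless genes encode short-lived, quickly induced regulators, such as immediate-early proteins, transcription factors, receptors and small GTPases. TPR is a filament-forming protein of the nuclear basket, which faces the nucleoplasm at the nuclear pore and docks the TREX-2 mRNA export complex.

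RNA was sequenced in 6 libraries of the colorectal adenocarcinoma line DLD-1. In all of them the endogenous TPR gene carried an auxin-inducible degron (AID) and NeonGreen on both alleles (genotype AID-NeonGreen-TPR), and TIR1, the ligase component that auxin brings to the degron, was expressed from the RCC1 locus. In the LMB group (3 libraries), cells were given Leptomycin B, an inhibitor of the export receptor CRM1, at 200 nM for 3 h. In the LMB+auxin group (3 libraries), 1 mM auxin was added over the last 2 h of the same 200 nM, 3 h treatment, so the comparison asks what loss of TPR adds once CRM1 is blocked. The sample titles give 2 h in place of the 3 h that the incubation time label and the study's methods give for Leptomycin B. Controls carried the tag, TIR1 and Leptomycin B as well, and only the auxin differed. The response to auxin in cells without a degron was not measured in these 6 libraries. The labels name 1 tagged line and 3 replicates per group, which the study's methods describe as independent biological replicates.

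Library totals ran from 28261903 to 35992425 counts, and precision for a single gene was limited by 3 libraries in each group. Of 9 colon epithelial markers, 7 were above 1 CPM in every library, CDX1 and LGALS4 being the exceptions, and their summed level was 7070 to 7190 CPM in LMB and 7020 to 7560 CPM in LMB+auxin. Of 8 markers of blood, stromal, endothelial and muscle cells, 2 (CD68 and VWF) were above 1 CPM throughout, and the sum was 9.97 to 10.5 and 8.72 to 10.5 CPM. In bulk RNA, fewer cells of a type and less RNA per cell cannot be told apart. Auxin removes the TPR protein rather than its RNA, so the TPR transcript does not report depletion. TPR RNA stood at 166 ± 12.0 CPM (SD, n = 3) in LMB and 187 ± 3.84 CPM (n = 3) in LMB+auxin, a log2 fold change of 0.17 (adjusted p = 0.954). With the replicate number as a block the adjusted p was 0.0136, at a size below the 1.3-fold bar.

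All 36 tested genes had their coding sequence in 1 exon of the canonical transcript in GENCODE 44, and 30 of them had 1 exon in every annotated transcript. In 3 genes, IER2, FZD5 and ARF6, the canonical transcript had 2 exons, with an intron ahead of the coding exon. PURA, TAF7 and INAFM2 had a canonical transcript of 1 exon and further transcripts with more. The 3 introns are shown by their ends because they are the exceptions to the name of the group. They measured 2391 bases in IER2, 270 bases in FZD5 and 98 bases in ARF6. Sequences are from GRCh38, read 5′ to 3′ on the strand of the gene, and capitals mark the GT that opens and the AG that closes each intron, the usual splice site bases.
IER2 intron start, chr19:13150553-13150572, plus strand: GTaaataatgatagcctccc
IER2 intron end, chr19:13152919-13152943, plus strand: gtaaatcgcattctgtctctttaAG
FZD5 intron start, chr2:207769245-207769264, minus strand: GTgagaaccttccctttctc
FZD5 intron end, chr2:207768995-207769019, minus strand: ttcttctcccccttcttttttaaAG
ARF6 intron start, chr14:49893158-49893177, plus strand: GTaaccccttgggccgagct
ARF6 intron end, chr14:49893231-49893255, plus strand: cccctccctctctgtttctctgcAG

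As a group, the intronless genes were lower in LMB+auxin than in LMB by a small amount that recurred across libraries. The log2 fold change was below 0 for 33 of the 36 tested genes, against 50.8% of all genes tested. Their median log2 fold change was -0.20, beside -0.003 over all genes. Within replicate pairs, which set LMB+auxin replicate 1 against LMB replicate 1 and so on, the median of the group was -0.17, -0.24 and -0.13. For 28 of the 36 genes LMB+auxin was the lower library in all 3 pairs, where 20.5% of all genes were. Every LMB+auxin library lay below every LMB library for 9 genes, with 6.63% as the share over all genes. The exceptions in direction were PURB, TAF7 and INAFM2, whose log2 fold changes of 0.040, 0.0080 and 0.14 did not pass the test.

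Changes of this size were at the edge of what the design resolved for a single gene. A call required an adjusted p (Benjamini-Hochberg) under 0.05 together with a change of at least 1.3-fold, or 0.38 on the log2 scale. By edgeR's quasi-likelihood test without a block, 0 of the 36 genes were called, as 0.00589% of all genes were, and 7 were lower at an unadjusted p under 0.05, against 3.35% of all genes. Those 7 were IER5, IER5L, CEBPA, CEBPD, RHOB, ZXDA and ZXDB. DESeq2 called 0 of the 36 as well, with and without the block, where it called 31 and 11 of all 16974 genes. It had 10 and 7 of the 36 at an unadjusted p under 0.05, against 7.92% and 3.1% of all genes. Libraries of the same replicate number deviated together, and with the number as a block the median standard error of the group was 0.079 in place of 0.12. In that fit 2 genes were called lower, IER5 and ZXDB, where 0.884% of all genes were called lower. Dropping the 1.3-fold bar, 9 of the 36 genes were lower at adjusted p under 0.05, against 3.25% of all genes: IER2, IER5, IER5L, CEBPD, RHOB, ZXDA, ZXDB, KBTBD7 and MOCS3. That count of 9 was 8, 3 and 2 when pair 1, 2 or 3 was left out, and 2 by DESeq2 with the block (IER5 and RHOB), which gave no adjusted p for 13 of the 36.

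**Figure D1:**
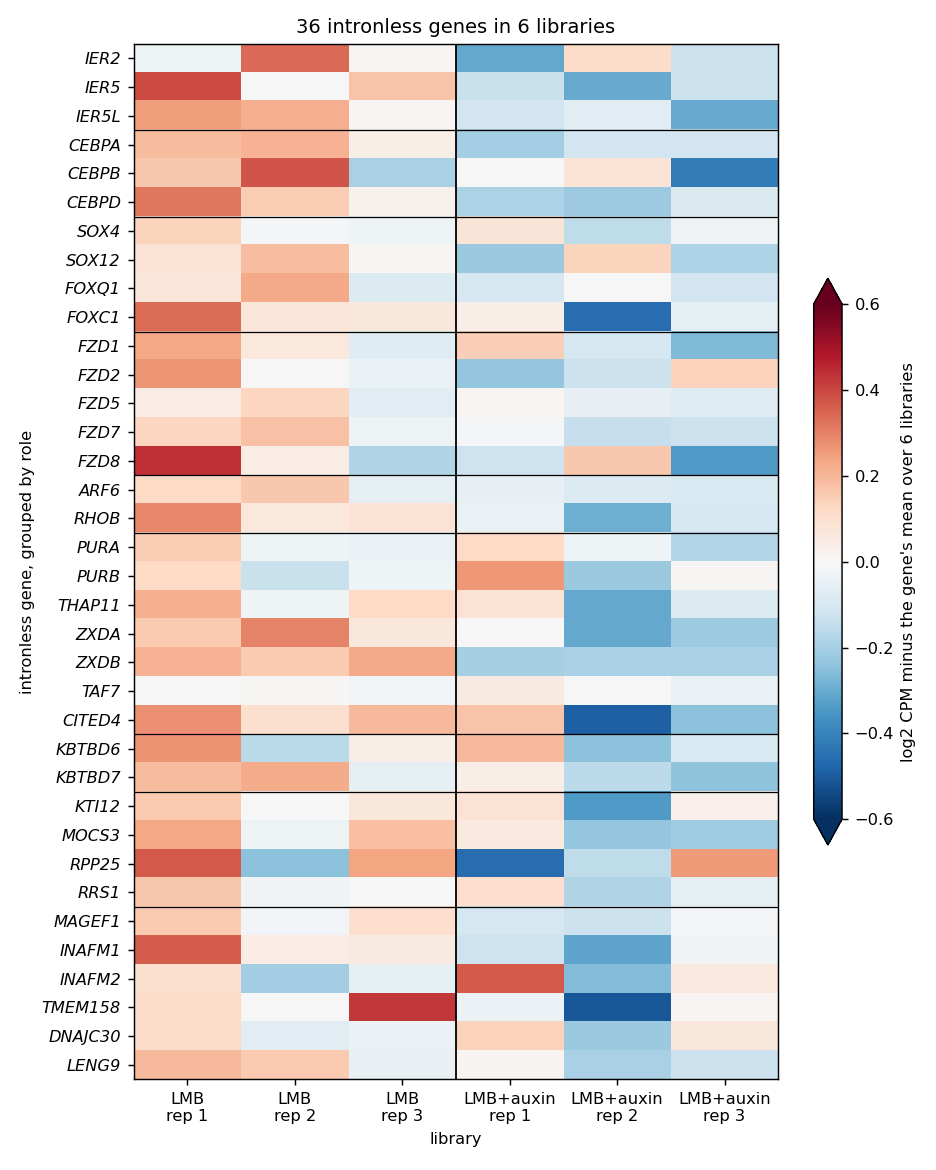
Level of each of the 36 tested intronless genes (vertical axis, grouped by role) in the 6 libraries (horizontal axis), as log2 CPM minus the gene's mean over the libraries; red is above and blue below that mean. The mean over the 36 genes was 0.19, 0.068 and 0.031 in LMB replicates 1 to 3 and -0.019, -0.17 and -0.10 in LMB+auxin replicates 1 to 3.

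LMB replicate 1 held the highest levels of the group and LMB+auxin replicate 2 the lowest, and LMB+auxin replicate 1 came closest to the LMB libraries. Without LMB replicate 1, 30 of the 36 genes were lower and the median was -0.16. Without LMB+auxin replicate 1, all 36 were lower and the median was -0.23. Fold changes below are from the fit with the replicate block unless named otherwise, adjusted p-values are those of edgeR's quasi-likelihood test over all 16974 genes, and ± after a log2 fold change is its standard error.

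The immediate-early response genes encode proteins made within minutes of a stimulus, and all 3 were lower in LMB+auxin in every pair. IER5, a nuclear protein that acts with the heat shock factor HSF1 (chr1:181088700-181092900, plus strand), was measured at 33.0, 25.2 and 28.3 CPM in LMB replicates 1, 2 and 3 and at 22.9, 20.4 and 22.9 CPM in LMB+auxin. The groups did not overlap. IER5 fell by 0.38 ± 0.065 on the log2 scale (adjusted p = 1.65e-05), just past the bar of 0.38, and without pair 1 the fall of 0.30 was under it. DESeq2 with the block gave it an adjusted p of 0.0145. IER5L, a relative of IER5 on chromosome 9 (chr9:129175552-129178261, minus strand), was at 11.9, 11.7 and 10.1 CPM in LMB and at 9.22, 9.58 and 8.10 CPM in LMB+auxin. All LMB+auxin libraries were below all LMB libraries, and the log2 fold change was -0.32 ± 0.086 (adjusted p = 0.0128). IER2, a nuclear protein induced by growth factors (chr19:13150411-13154911, plus strand), had the highest CPM of the trio, with 86.8, 113 and 89.5 CPM in LMB and 71.7, 95.9 and 81.3 CPM in LMB+auxin. Here the groups overlapped, since LMB+auxin replicate 2 was above LMB replicates 1 and 3, while each pair was lower. The log2 fold change of IER2 was -0.22 ± 0.050 (adjusted p = 0.00287). IER2 shared 946 exon bases with an antisense lncRNA gene of 46.4 CPM and IER5L shared 1132 with IER5L-AS1 at 3.67 CPM. Reads of such partners could not be told apart in the counts, because the sources used here do not state how strand was counted.

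The promoters of 30 of the 36 tested genes were found in RefSeq (GRCh38.p14), and the 250 bases ahead of the start are shown for IER5, IER5L and RHOB, lower genes whose libraries did not overlap. Capitals mark matches on either strand to GAANNTTC (inverted units of a heat shock element), to the CCAAT box and to the GC box GGGCGG, each shown in capitals also where it lies on the other strand. IER5 and IER5L were the 2 of 30 genes with GAANNTTC in a promoter, which 5.78% of the 35116 RefSeq promoters held. CCAAT was in 15 of the 30 (32.0% of all promoters), GGGCGG in 25 (42.6%), TATAAA in 4 (10.7%) and TGACGTCA in 1 (1.65%). Genes were counted if any of their promoters held a match, while the percentages are over single promoters, so they are unlike measures. The motifs do not overlap one another, though a GGGCGG and a CCAAT of RHOB adjoin. These are matches of letters, and binding was not measured.
IER5, chr1:181088450-181088699, plus strand: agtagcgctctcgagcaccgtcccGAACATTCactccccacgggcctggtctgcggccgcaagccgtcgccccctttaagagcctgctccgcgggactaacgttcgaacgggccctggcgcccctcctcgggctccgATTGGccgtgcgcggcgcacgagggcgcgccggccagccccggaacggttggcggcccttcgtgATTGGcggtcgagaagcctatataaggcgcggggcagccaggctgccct
IER5L, chr9:129178262-129178511, minus strand: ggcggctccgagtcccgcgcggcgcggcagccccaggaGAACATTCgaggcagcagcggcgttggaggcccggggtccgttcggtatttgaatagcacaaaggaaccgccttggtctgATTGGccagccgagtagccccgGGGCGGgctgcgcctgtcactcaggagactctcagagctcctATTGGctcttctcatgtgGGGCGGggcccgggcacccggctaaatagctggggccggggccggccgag
RHOB, chr2:20446824-20447073, plus strand: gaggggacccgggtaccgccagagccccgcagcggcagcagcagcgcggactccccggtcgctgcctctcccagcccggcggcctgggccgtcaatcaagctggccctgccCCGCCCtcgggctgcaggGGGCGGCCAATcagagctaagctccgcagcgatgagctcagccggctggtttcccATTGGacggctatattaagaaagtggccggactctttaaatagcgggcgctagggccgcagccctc

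The C/EBP leucine zipper factors, regulators of differentiation and of the acute phase response, were lower in all 3 pairs for all 3 members, with a median log2 fold change of -0.29. CEBPD (chr8:47736913-47738164, minus strand) was at 7.49, 6.68 and 6.13 CPM in LMB and at 5.25, 5.17 and 5.65 CPM in LMB+auxin. The groups did not overlap, and the log2 fold change of -0.33 ± 0.11 had an adjusted p of 0.0499, at the threshold. CEBPA (chr19:33299934-33302534, minus strand) also separated the groups, with 8.77, 8.88 and 7.87 CPM in LMB and 6.66, 7.08 and 7.09 CPM in LMB+auxin. Its log2 fold change was -0.29 ± 0.095 (adjusted p = 0.0602). CEBPB had the highest CPM of the family, 14.2, 16.5 and 11.1 CPM in LMB and 12.7, 13.4 and 9.48 CPM in LMB+auxin. Those groups overlapped, and the log2 fold change of -0.23 ± 0.079 did not pass (adjusted p = 0.0734). CEBPG, the relative with introns, had a log2 fold change of -0.017. CEBPA shared exon bases with 2 antisense lncRNA genes and CEBPB with CEBPB-AS1.

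The SOX and forkhead factors, developmental DNA-binding proteins that bend DNA or open chromatin, had a median of -0.16 over 4 genes, and 0 passed the adjusted test. SOX4, a SoxC factor and the most abundant by CPM, was at 111, 100.0 and 99.2 CPM in LMB and at 107, 91.0 and 99.4 CPM in LMB+auxin. The libraries interleaved, with a log2 fold change of -0.063 ± 0.049 (adjusted p = 0.483). SOX12, its SoxC relative, was at 12.8, 13.7 and 12.1 CPM and then at 10.3, 13.2 and 10.5 CPM, with a log2 fold change of -0.18 ± 0.081 (adjusted p = 0.179). FOXC1, a forkhead factor of mesoderm development, was at 4.32, 3.58 and 3.58 CPM in LMB and at 3.50, 2.46 and 3.26 CPM in LMB+auxin, with no overlap. Its low counts left a wide error, and the log2 fold change of -0.31 ± 0.13 had an adjusted p of 0.161. FOXQ1, a forkhead factor expressed in many colorectal tumours, was at 74.6, 82.9 and 66.9 CPM in LMB and at 66.0, 71.0 and 65.4 CPM in LMB+auxin. LMB replicate 3 lay within the LMB+auxin range, and the log2 fold change was -0.15 ± 0.052 (adjusted p = 0.0873).

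The Frizzled genes encode seven-pass receptors for Wnt ligands, and 5 of them were members of the group. All 5 had log2 fold changes below 0, from -0.21 for FZD8 to -0.074 for FZD5, and 0 passed the adjusted test. FZD7, the Frizzled of highest CPM, was at 30.1, 31.1 and 26.9 CPM in LMB and at 27.4, 25.0 and 25.2 CPM in LMB+auxin. Only LMB+auxin replicate 1 exceeded an LMB library, and the log2 fold change was -0.18 ± 0.063 (adjusted p = 0.0825). FZD1, FZD2, FZD5 and FZD8 ran at means of 1.93 to 9.71 CPM in LMB. FZD2 was higher in LMB+auxin in pair 3 and FZD8 in pair 2. FZD3, FZD4 and FZD6, receptors with introns, had log2 fold changes of -0.088 to 0.046.

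The small GTPases RHOB and ARF6 were both lower in all 3 pairs. RHOB, a short-lived GTPase of endosomes that is induced by stress (chr2:20447074-20449440, plus strand), was at 168, 143 and 146 CPM in LMB and at 134, 112 and 128 CPM in LMB+auxin. Every LMB+auxin library was below every LMB library. At a log2 fold change of -0.29 ± 0.047 it stayed below the 1.3-fold bar while its adjusted p was 5.58e-06, and 0.000158 by DESeq2 with the block. RHOB kept an adjusted p under 0.05 with each pair left out in turn. ARF6, which controls traffic at the plasma membrane, was at 123, 126 and 109 CPM in LMB and at 109, 107 and 106 CPM in LMB+auxin. The LMB+auxin libraries sat at the level of the lowest LMB library, and the log2 fold change of -0.15 ± 0.049 did not pass (adjusted p = 0.0556). ARF1, ARF3, ARF4 and ARF5, with introns, ran from -0.043 to 0.036.

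**Figure D2:**
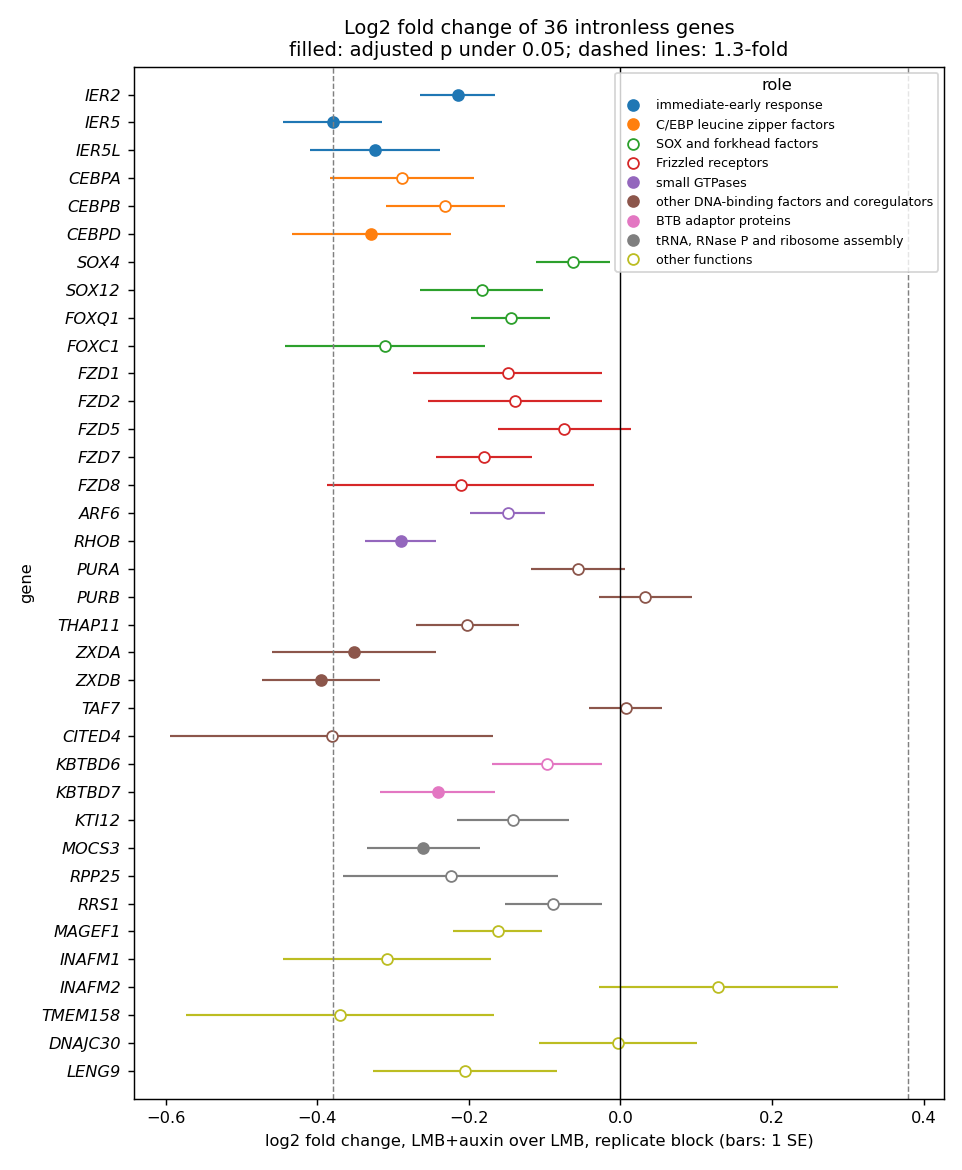
Log2 fold change of each tested gene (LMB+auxin over LMB, fit with the replicate block), with bars of 1 standard error and colours by role; filled points have an adjusted p under 0.05 and dashed lines mark 1.3-fold. The 36 values run from -0.39 for ZXDB to 0.13 for INAFM2, and the 9 filled points are all below 0.

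The other DNA-binding factors and coregulators ran from the lowest log2 fold change of the group, that of ZXDB, to values near 0 for PURA, PURB and TAF7. ZXDB, an X-linked zinc finger protein (chrX:57592011-57597477, plus strand), was at 15.0, 14.4 and 15.1 CPM in LMB and at 11.3 CPM in each LMB+auxin library. Replicates differed little and the groups were well apart. ZXDB fell by 0.39 ± 0.078 on the log2 scale (adjusted p = 0.000299). Without pair 3 its fall was 0.37, below the bar, and its adjusted p was not under 0.05. DESeq2 with the block gave ZXDB an adjusted p of 0.109. ZXDA, its neighbour on the X chromosome (chrX:57905430-57910458, minus strand), was at 6.25, 6.90 and 5.88 CPM in LMB and at 5.59, 4.52 and 4.80 CPM in LMB+auxin. The groups did not overlap, and the log2 fold change was -0.35 ± 0.11 (adjusted p = 0.0392). ZXDA was called at -0.45 when pair 1 was left out. Without pair 2 it was at -0.22 and without pair 3 at -0.38, and its adjusted p was not under 0.05 in either case. ZXDC, the related gene with introns, had -0.10.

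The coding sequences of ZXDA and ZXDB were 97.7% identical over 2397 aligned bases, and the longest stretch without a difference was 441 bases. Reads from such stretches match either gene, so the split of counts between them is uncertain and they are not independent measurements. How reads with several matches were counted is not stated in the sources used here. A stretch of 75 coding bases (positions 110 to 184 from the start codon in each gene, GRCh38) shows how close they are, with the base that differs in capitals.
ZXDA, chrX:57910237-57910311, minus strand: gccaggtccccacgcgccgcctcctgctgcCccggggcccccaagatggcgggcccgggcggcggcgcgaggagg
ZXDB, chrX:57592158-57592232, plus strand: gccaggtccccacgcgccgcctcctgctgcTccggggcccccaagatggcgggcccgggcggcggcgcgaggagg

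THAP11, a zinc finger factor that works with the cofactor HCF-1, was at 24.4, 20.7 and 22.9 CPM in LMB and at 22.3, 17.0 and 19.9 CPM in LMB+auxin. LMB+auxin replicate 1 was above LMB replicate 2, and the log2 fold change was -0.20 ± 0.068 (adjusted p = 0.065), with 380 exon bases shared with CENPT on the other strand. TAF7, a subunit of the general transcription factor TFIID and the gene of highest CPM here, was at 115, 116 and 114 CPM in LMB and at 119, 115 and 112 CPM in LMB+auxin. Its log2 fold change was 0.0070 ± 0.048, and 14 TAF genes with introns had a median of 0.033. PURA and PURB, which bind purine-rich DNA and RNA, had log2 fold changes of -0.056 ± 0.062 and 0.033 ± 0.061. CITED4, a partner of the coactivators CBP and p300, had 23 to 47 counts a library, and its log2 fold change of -0.38 ± 0.21 did not pass (adjusted p = 0.304).

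KBTBD6 and KBTBD7 are BTB adaptors of one CUL3 ubiquitin ligase, and both were lower in all 3 pairs. KBTBD7 (chr13:41189834-41194569, minus strand) was at 16.7, 17.1 and 14.1 CPM in LMB and at 15.0, 13.1 and 12.3 CPM in LMB+auxin. LMB+auxin replicate 1 was above LMB replicate 3, and the log2 fold change was -0.24 ± 0.076 (adjusted p = 0.0462). KBTBD6, of higher CPM, was at 20.3, 15.1 and 17.3 CPM and then at 19.3, 14.2 and 15.9 CPM. Its groups overlapped widely, with a log2 fold change of -0.097 ± 0.072 (adjusted p = 0.462). The difference between these 2 neighbours on chromosome 13 was not tested.

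Genes of tRNA modification, RNase P and ribosome assembly had a median log2 fold change of -0.18 over 4 members. MOCS3, a sulphur carrier enzyme for molybdenum cofactor and tRNA thiolation (chr20:50958818-50963929, plus strand), was at 17.6, 14.7 and 17.0 CPM in LMB and at 15.6, 12.7 and 12.9 CPM in LMB+auxin. All pairs were lower, while LMB+auxin replicate 1 exceeded LMB replicate 2. The log2 fold change was -0.26 ± 0.075 (adjusted p = 0.0266), and 323 of its exon bases are shared with DPM1, a gene of 52.5 CPM on the other strand. RRS1, a ribosome assembly factor and the highest of these by CPM, was at 28.7, 25.3 and 25.6 CPM in LMB and at 27.6, 22.7 and 24.7 CPM in LMB+auxin. That change of -0.089 ± 0.064 was within the spread (adjusted p = 0.445). KTI12, a cofactor of the tRNA-modifying Elongator complex, had -0.14 ± 0.074, with 526 exon bases shared with TXNDC12 on its own strand at 94.0 CPM. RPP25, a subunit of RNase P, had -0.82 in pair 1 but 0.10 and 0.020 in pairs 2 and 3, so its value of -0.22 ± 0.14 rested on pair 1.

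Of the 6 genes with other functions, 5 had log2 fold changes below 0 and 0 passed the adjusted test. MAGEF1, a MAGE family protein that directs a ubiquitin ligase, was at 40.7, 36.1 and 39.1 CPM in LMB and at 33.9, 33.4 and 36.4 CPM in LMB+auxin. LMB replicate 2 fell within the LMB+auxin range, with a log2 fold change of -0.16 ± 0.059 (adjusted p = 0.0994). INAFM1, a small membrane protein gene, was at 4.04, 3.23 and 3.24 CPM in LMB and at 2.86, 2.50 and 3.08 CPM in LMB+auxin. Its groups did not overlap, and the log2 fold change of -0.31 ± 0.14 had an adjusted p of 0.182. INAFM2, its relative, was at 0.13 ± 0.16, TMEM158, a membrane protein induced by Ras signalling, at -0.37 ± 0.20, and LENG9 at -0.21 ± 0.12. DNAJC30, a J-domain protein of mitochondria, had -0.0030 ± 0.10. In all, 17 tested genes had an unadjusted p of at least 0.05 in both fits, from -0.38 for CITED4 to 0.13 for INAFM2, 14 of them below 0.

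Levels differed widely among the genes, from 0.477 RPKM (CPM per kilobase of exon) for FZD8 to 64.4 RPKM for RHOB in LMB, with a median of 3.37 RPKM. Spearman's rank correlation of the log2 fold change over the 36 genes was 0.14 with the RPKM level and 0.24 with transcript length, and -0.44 with the GC content of the transcript, which ran from 36.4% for PURA to 73.5% for CITED4. These points share the same 6 libraries, and the correlations are given as a description.

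GC content moved with the comparison outside the group as well, most in pair 1 and less in pair 3. Coding genes of 3 or more exons in GC class 5, the highest of 5 classes of equal gene number (58.7% to 76.0% GC), had pair medians of -0.24, -0.012 and -0.052, and those in GC class 1, the lowest, 0.12, 0.0020 and 0.032. The 14 tested intronless genes of GC class 5 had pair medians of -0.30, -0.29 and -0.16. A curve of log2 CPM on GC was then taken in each library over 11851 coding genes of 3 or more exons and removed from all genes, within the fit with the replicate block. The median of the 36 intronless genes was then -0.13, beside -0.003 over all genes, and 34 of them were below 0, as 51.1% of all genes were. The rank correlation with GC content became 0.17. IER5, ZXDA and ZXDB were called, at log2 fold changes of -0.40 ± 0.052, -0.39 ± 0.10 and -0.44 ± 0.066 (adjusted p = 2.23e-06, 0.0151 and 2.96e-05), where 0.689% of all genes were called lower. RHOB, KBTBD7 and MOCS3 also kept an adjusted p under 0.05 (8.42e-06, 0.00372 and 0.00196), and ARF6 and MAGEF1 joined them (0.000608 and 0.0366). That made 8 of the 36, against 3.66% of all genes. IER2, IER5L and CEBPD, of 63.0% to 66.0% GC, did not keep it (adjusted p = 0.0731, 0.155 and 0.307). All 3 C/EBP genes and all 3 IER genes stayed below 0, at medians of -0.142 and -0.185.

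**Figure D3:**
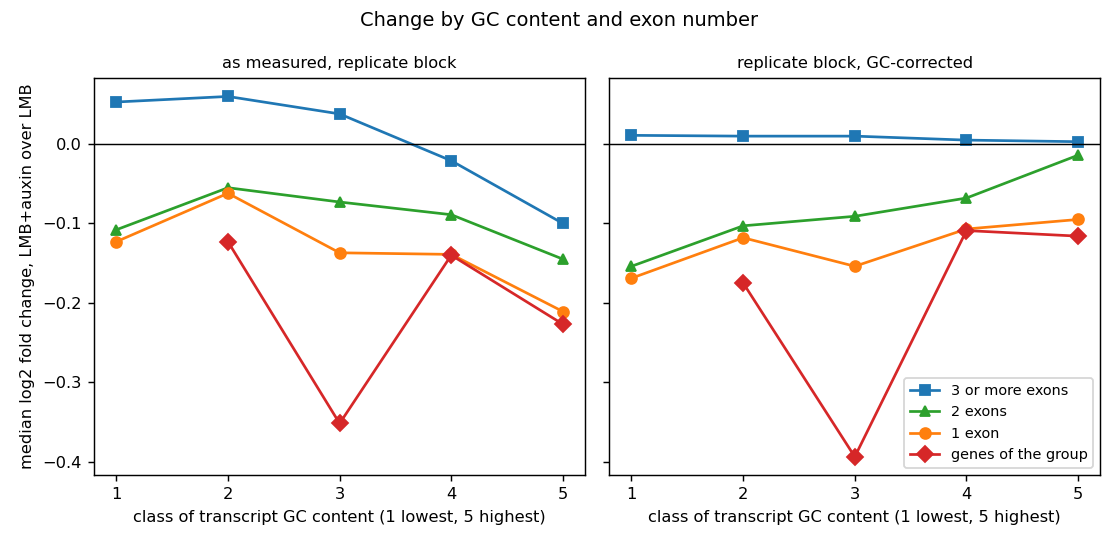
Median log2 fold change (vertical axis) by class of transcript GC content (horizontal axis, 5 classes, 1 lowest) for coding genes of 3 or more, 2 and 1 exons and for the intronless genes of the group (classes with at least 5 genes), before (left) and after (right) the GC correction. Genes of 3 or more exons run from 0.053 to -0.10 on the left and lie within 0.011 of 0 on the right, and the intronless genes stay below 0 in both panels.

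The lower level was shared by coding genes with few exons at large. Other single-exon coding genes, neither histones nor in the group, numbered 125, of which 105 were lower without the block, with a median log2 fold change of -0.14 and pair medians of -0.18, -0.15 and -0.094. With the block, 24 of the 125 (19.2%) were lower at adjusted p under 0.05, against 3.25% of all genes. Of these, 6 also passed the 1.3-fold bar, where 0.884% of all genes were called lower. Among those 6, the 5 of smallest adjusted p were P2RY1, PROB1, TIGD5, PPP1R3D and OTUD1, between -0.61 and -0.38 on the log2 scale. The 41 single-exon histone genes had a median of -0.13. By contrast, 114 multi-exon relatives of the group (family members with an intron in at least 1 annotated transcript, FOXD1 having a canonical transcript of 1 exon) had a median of -0.012, with 61 of them lower. Of these relatives, 6 were lower and 2 higher at adjusted p under 0.05 with the block. The 6 lower genes made up 5.26% of them, against 3.25% of all genes. These 6 were RHOV, KBTBD2, FOXA1, THAP1, FOXO3 and CITED2, of 2 to 4 exons, from -0.34 for RHOV to -0.19 for CITED2. The 2 higher were IER3 and RPP30. Without the block, the median of the relatives turned to 0.0050 when LMB replicate 2 was left out and to 0.012 when LMB+auxin replicate 3 was. The 1 relative past the 1.3-fold bar as well was IER3, an immediate-early gene of 2 exons, which rose in the fit with the block. IER3 was at 113, 264 and 131 CPM in LMB and at 157, 361 and 206 CPM in LMB+auxin, and was higher in each pair (log2 fold change 0.52 ± 0.046, adjusted p = 2.83e-16 with the block and 0.954 without it). IER2, whose canonical transcript also has 2 exons, and the single-exon IER5 and IER5L were lower in each pair. After the GC correction the medians were -0.12 for the 125 single-exon genes and 0.0010 for the relatives. Lower at adjusted p under 0.05 in that fit were 33 of the 125 (26.4%) and 11 of the 114 relatives (9.65%), against 3.66% of all genes.

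**Figure D4:**
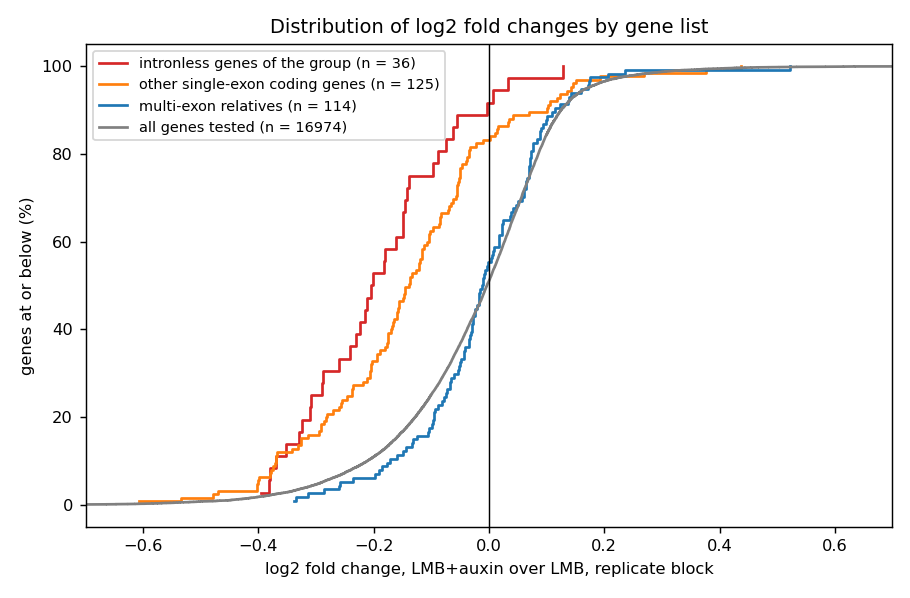
Percentage of genes (vertical axis) at or below each log2 fold change (horizontal axis, LMB+auxin over LMB, replicate block) for the 36 intronless genes, 125 other single-exon coding genes, 114 multi-exon relatives and all 16974 genes; values beyond 0.7 are off the axis. At the median, the curves of the 36 intronless genes and the 125 other single-exon genes lie to the left of the others. The medians are -0.20 and -0.14 beside -0.012 and -0.003.

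Across the remaining coding genes the median moved with exon number in steps. It was -0.14 for 171 genes with 1 exon in the canonical transcript, -0.096 for 550 genes with 2 exons and -0.030 for 2636 genes with 3 to 5 exons. Genes with 6 to 10, 11 to 20 and over 20 exons had medians of 0.013, 0.026 and 0.039. In the pairs, 1-exon genes had -0.17, -0.14 and -0.091 and genes of over 20 exons 0.047, 0.054 and 0.0080. With the GC correction the ends of the series were -0.13 and 0.026. Genes are not independent replicates and these are medians over the same 6 libraries, given without a test. The library contents were total RNA of whole cells, so where in the cell the transcripts lay was not measured, and the part of RNA stability, transcription or export in the values was not tested.

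**Figure D5:**
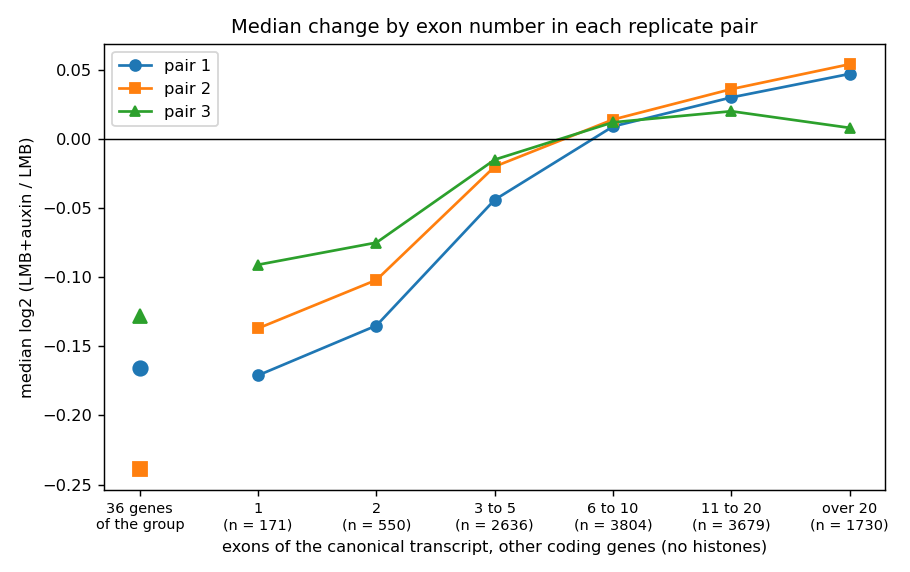
Median log2 ratio of LMB+auxin to LMB (vertical axis) in each replicate pair by exon number of the canonical transcript (horizontal axis, number of genes in brackets), with the 36 intronless genes on the left. Pair medians rise from -0.17, -0.14 and -0.091 at 1 exon to values above 0 from 6 exons on, and the intronless genes sit at -0.17, -0.24 and -0.13.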

How the data were processed

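Ribosomal RNA was removed from total RNA and TruSeq libraries were sequenced. Per the submitters' processing notes, CASAVA 1.8.2, STAR 2.6.1c and featureCounts 1.5.2 were used with GRCh38. The values the authors deposited are raw counts, whole numbers given for each Ensembl gene and not normalized. The sources used here state neither the strand setting nor the handling of reads with several matches. Because of this, 12 of the 37 genes, which share at least 100 exon bases with another tested gene, and the near-identical ZXDA and ZXDB have uncertain counts. Counting error and the spread between 3 libraries set the precision.

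Groups follow the treatment in the labels. Genes with CPM above 1 in at least 3 libraries were scaled by TMM and compared by edgeR 4.0.16 in R 4.3.3 (glmQLFTest, two-sided), with Benjamini-Hochberg adjustment over 16974 genes. CPM values carry the TMM factors. The standard error is the log2 fold change over the square root of F. Same-numbered libraries deviated together from their group means (r = 0.531, 0.691 and 0.273, others -0.573 to 0.146), so values with the replicate number as a block stand beside results. Pair differences are of log2 CPM with a prior count of 2. Gene models are from GENCODE 44, a later release on the same assembly than the one counted on. ZXDA and ZXDB were aligned with MAFFT. The scripts were checked on simulated counts.

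The genes, their relatives and the comparison lists were chosen with earlier results of these data known. Full values are given for genes called or at an unadjusted p under 0.05 in either fit. They are also given for the gene of highest CPM in each role. Of the other single-exon genes, up to 5 called genes are named. Relatives are also named beside their families, called or not, and where their adjusted p was under 0.05 with the block. Alternatives were the block, DESeq2 1.42.0 with and without it, other scalings, no filter on low counts, each library left out, and 2 definitions of single-exon genes and overlap. Each pair left out, library size alone and a GC correction (lowess span 0.3), all with the block, were added after the data were seen.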

Additional observations from a re-analysis of the deposited data

How the results depend on the processing

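No value here had a replicate check beyond 3 libraries a group, and low counts widened the errors of CITED4, TMEM158 and FZD8. Over all genes the count of calls was 1, and it was 201 with the replicate block, 31 by DESeq2 with the block, 11 by DESeq2, 39 without the filter on low counts, 0 with library size alone, and 0 to 5 with a library left out. Called intronless genes were 0 in every setting without the block and 2 with the replicate block, where leaving out a pair gave 1 to 2. The 9 genes lower at adjusted p under 0.05 with the block became 15 with library size alone, 2 by DESeq2, and 2 to 8 with a pair left out. The median of the intronless genes stayed between -0.23 and -0.16 with a library left out. It moved in one setting, the replicate block with the GC correction, at -0.13. For other single-exon genes the range was -0.17 to -0.080, the latter without LMB replicate 1. For multi-exon relatives it was -0.026 to 0.012, and -0.025 with library size alone.

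Relative to the fit without the block, 30 of 36 genes kept their direction in all 12 alternatives. These alternatives included the block and DESeq2 with the block. The other 6 genes turned in sign in at least 1 of them. With a library left out, PURA ran from -0.13 to 0.024, PURB from -0.091 to 0.15, KBTBD6 from -0.22 to 0.021, INAFM2 from -0.036 to 0.28, TAF7 from -0.017 to 0.034 and DNAJC30 from -0.074 to 0.10. TAF7 was -0.0037 with library size alone, and DNAJC30 was 0.0058 by DESeq2 and by median-ratio factors. With the block and a pair left out, FZD2 ran from -0.31 to 0.036, RPP25 from -0.38 to 0.051, PURB from -0.022 to 0.094, TAF7 from -0.017 to 0.028 and DNAJC30 from -0.054 to 0.073. The GC correction gave -0.018 for PURB, -0.044 for TAF7 and 0.016 for DNAJC30, and library size alone with the block -0.0051 for TAF7. The cause was not tested.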

Other observations

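Non-coding genes with 1 exon were measured as well, and this look at them was chosen after the values of the coding genes had been seen. Long non-coding RNA genes with 1 exon numbered 624, with a median log2 fold change of -0.060 in the fit with the replicate block, and 2228 with 2 or more exons had -0.034. Processed pseudogenes, which are intronless copies of mRNAs, numbered 327 with a median of -0.11, and pair medians of -0.036, -0.13 and -0.15. Reads of such copies can come from their parent genes.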
